A study of Mus with 21 samples.

Results

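The collagen chain genes are described here in mouse skin wounds on Day 4. The family was chosen with earlier results of these data known. Within it, members were taken by symbol alone, as all symbols made of Col, a number, the letter a and a second number. This gave 44 of the 18806 genes counted. By structure, 11 of them encode fibrillar chains, 6 encode chains of the basement membrane, 9 encode FACIT chains (fibril-associated collagens with interrupted triple helices), and 18 belong to other classes. The 21 libraries came from female, wild-type C57BL/6 mice, 8 weeks old, with full-thickness wounds, 8 mm across, left and right on the back. There were 7 groups of 3 libraries. The control wounds received no hydrogel scaffold. The other wounds were covered for 4 days with GelMA, a light-cured gelatin hydrogel, of pH 6.4, 7.4 or 8.4 that carried aFGF or bFGF, the acidic and the basic fibroblast growth factor. A group name such as 6.4/aFGF gives the pH and then the factor. Every hydrogel carried a growth factor, so the effect of the gel and that of the factor cannot be told apart against control. A mouse is the replicate.

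Collagens are built from 3 polypeptide chains wound into a triple helix. Types I, III and V form the fibrils that give the dermis its strength. Type IV forms the sheet-like network of basement membranes under the epidermis and around vessels, type VI forms beaded filaments near cells, and type VII forms the anchoring fibrils that tie the epidermis to the dermis. FACIT collagens such as types XII, XIV and XVI sit on the surface of fibrils or near basement membranes. In a healing wound, fibroblasts lay down type III and type I collagen in the granulation tissue that fills the defect. Types II, IX, X and XI are the collagens of cartilage, although chains of type XI also occur with type V elsewhere.

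Total counts per library ranged from 34362558 to 37817833. Libraries of one group differed by 17.2 to 368 times what counting noise alone would give (chi-square per degree of freedom), so errors are standard deviations (SD) over mice. Levels of one gene across libraries are given in CPM, counts scaled to a common library size after TMM normalization. Levels of different genes are compared only in FPKM, which also divides by gene length. A count of 0 allows up to 3 counts, or 0.0873 CPM at the lowest depth. Markers of fibroblasts were abundant in every library (summed level of 10 genes, 4053 to 6060 CPM), as were those of keratinocytes (8 genes, 2007 to 5394 CPM). The libraries also held other tissues in unequal amounts. The summed level of 12 skeletal muscle genes ranged from 278 CPM in 7.4/bFGF replicate 3 to 17002 CPM in 6.4/aFGF replicate 3. Several genes of cartilage and bone were high in 7.4/aFGF replicate 3, liver genes in 8.4/aFGF replicate 2 (249 CPM) and genes of the ovary and oviduct in 8.4/bFGF replicate 2 (1019 CPM). Results that rest on these 3 libraries are given with and without them, except those of the alternative test DESeq2.

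Collagen chains took up 3.95% to 8.78% of all counts (median 4.99%, n = 21). The 3 chains of types I and III made up most of this share, with 3.03% to 7.03% (median 3.94%). In FPKM, Col3a1 was the most abundant chain (median 3568) and ranked 6th among all genes. Col1a1 (median 1907 FPKM) and Col1a2 (1695 FPKM), which encode the chains of type I collagen, ranked 17th and 19th. The next chains were far lower. Col5a2, a chain of the type V collagen that starts fibrils, had a median of 219 FPKM. Col4a1 (218 FPKM) and Col6a1 (177 FPKM) were the most abundant chains of basement membranes and of beaded filaments. Among the FACIT chains, Col12a1 (61.2 FPKM), Col14a1 (43.7 FPKM) and Col16a1 (33.5 FPKM) led, and the fourth, Col20a1, was at 0.898 FPKM. Col15a1 (53.7 FPKM) and Col18a1 (49.5 FPKM), which carry sugar chains in the zones around basement membranes and vessels, led the remaining classes beside type VI. Chains of epithelial attachment were lower, with 19.3 FPKM for Col17a1 and 4.96 FPKM for Col7a1. In type IV, Col4a5 (1.55 FPKM) and Col4a4 (0.144 FPKM) followed far behind Col4a1 and Col4a2 (133 FPKM). Of the 44 chains, 24 had a median of at least 1 FPKM. These were 8 of 11 fibrillar, 3 of 6 basement membrane, 3 of 9 FACIT and 10 of 18 other chains. The lowest medians were those of the cartilage chains Col9a1 (0.0258 FPKM), Col2a1 (0.0229 FPKM) and Col10a1 (0 FPKM). After the filter on low counts, 42 chains were tested and Col2a1 and Col10a1 were not.

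**Figure D1:**
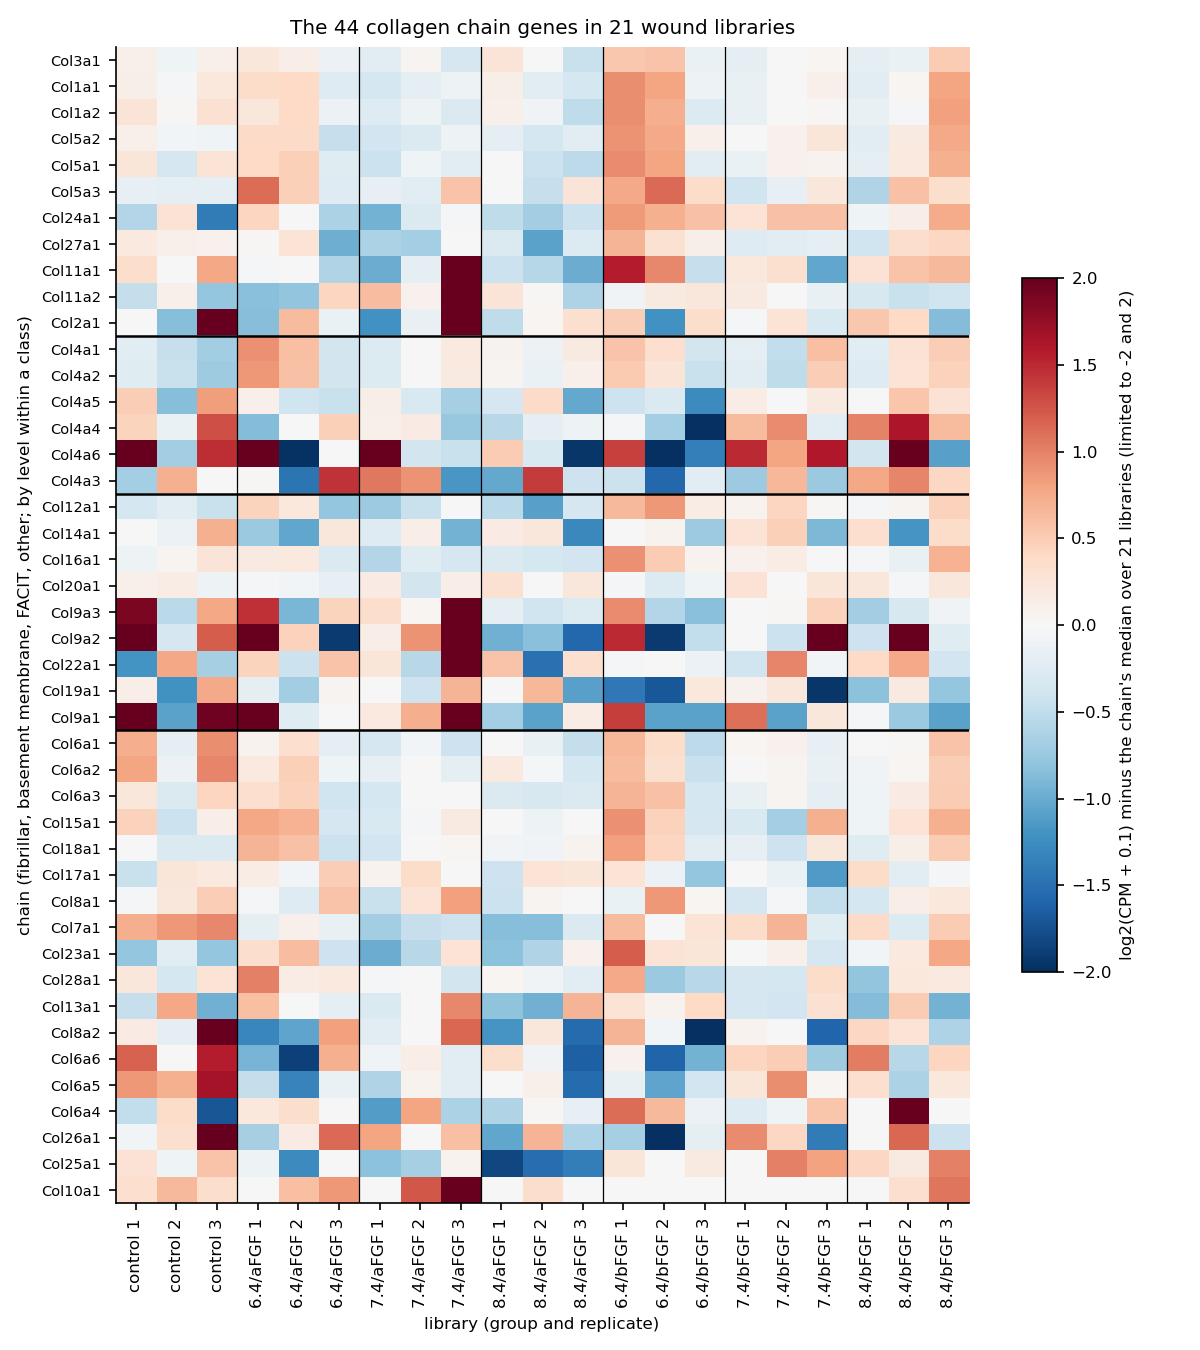
Each row is 1 of the 44 chains, each column 1 of the 21 libraries, and the color is the log2(CPM + 0.1) level minus the chain's median over all libraries, limited to -2 and 2. Black lines separate classes and groups. The columns of 6.4/bFGF replicates 1 and 2 and 8.4/bFGF replicate 3 are red for most abundant chains, and 7.4/aFGF replicate 3 is dark red for the cartilage chains.

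The levels of the abundant chains were high together in a few mice. Of the 24 chains with a median of at least 1 FPKM, 18 had 1 of their 3 highest levels in 6.4/bFGF replicate 1. The same held for 13 chains in 8.4/bFGF replicate 3 and for 11 in 6.4/bFGF replicate 2, but for 0 in 6.4/bFGF replicate 3. Col1a1 shows this spread. Its levels in 6.4/bFGF were 22138, 20046 and 10828 CPM, and in 8.4/bFGF 9954, 11947 and 20074 CPM. In control they were 12492, 11383 and 13338 CPM. The share of counts on all chains was 6.99% ± 2.25 (SD, n = 3) in 6.4/bFGF, 6.17% ± 1.89 in 8.4/bFGF, 5.60% ± 1.07 in 6.4/aFGF and 5.42% ± 0.779 in control. It was 5.01% ± 0.206 in 7.4/bFGF, 4.51% ± 0.527 in 8.4/aFGF and 4.48% ± 0.468 in 7.4/aFGF. Each pair of neighbors in this order differed by less than the larger of their SDs.

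**Figure D2:**
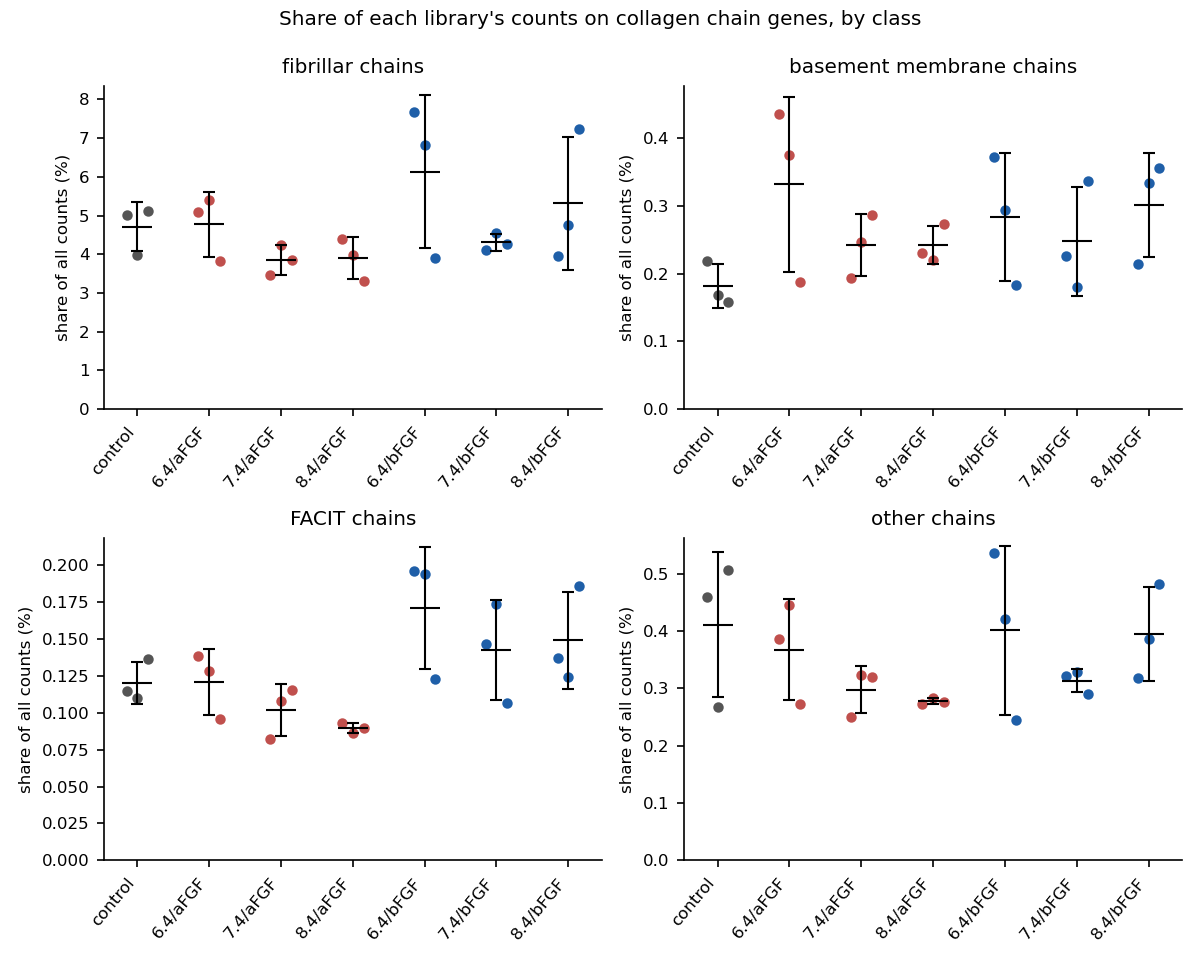
Share of each library's counts that fell on fibrillar, basement membrane, FACIT and other chains, in percent. Points are single mice (n = 3 per group), and black bars are the mean ± SD. Fibrillar chains made up 3.31% to 7.67% of counts, and the widest spread was in 6.4/bFGF and 8.4/bFGF.

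Some pairs of chains that assemble with each other varied little in proportion. The FPKM ratio of Col4a1 to Col4a2, neighboring genes that share a promoter region and encode the usual type IV trimer, was 1.61 to 1.75 in all 21 libraries. The ratio of Col1a1 to Col1a2 was 0.983 to 1.25, and that of Col6a1 to Col6a2 was 1.50 to 1.82. Other ratios varied more, partner chains included. Col3a1 over Col1a1 ranged from 1.37 in 6.4/bFGF replicate 1 to 2.13 in 7.4/aFGF replicate 2. Col6a3 over Col6a2, both chains of type VI, ranged from 0.620 to 1.11, and its mean was 0.688 ± 0.113 in control (SD, n = 3) and 0.789 to 1.01 in the hydrogel groups. In type V, Col5a1 over Col5a2 ranged from 0.602 to 0.955 and Col5a3 over Col5a2 from 0.343 to 0.747.

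Differences among the 7 groups were tested first. In edgeR's quasi-likelihood test with Benjamini-Hochberg adjustment over 15811 genes, 0 of 42 chains passed an adjusted p of 0.05, against 18 of all genes (0.114%). With an unadjusted p under 0.05 there were 13 chains (31.0%) against 19.3% of all genes, and without the 3 libraries with other tissues there were 8 chains (19.0%) against 15.8%. DESeq2 called 11 chains (26.2%) against 12.7% of all genes, among them Col7a1, Col25a1, Col11a2 and Col12a1. The called chains Col11a2, Col9a1 and Col9a3 were highest in 7.4/aFGF replicate 3, and Col6a4 in 8.4/bFGF replicate 2. DESeq2 was not run without these libraries. The 3 smallest p-values in edgeR's test belonged to Col7a1, Col11a2 and Col25a1. In the pairwise comparisons, a call needed an adjusted p under 0.05 together with a log2 fold change of more than 0.58 in size.

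Wounds with a hydrogel were then compared with control wounds, to ask which chains differ when a loaded scaffold is present. The main collagens of the dermis had nearly the same fitted levels in both. Their log2 fold changes were 0.02 for Col1a1 (standard error, SE, 0.21), -0.10 for Col1a2 (SE 0.21) and 0.01 for Col3a1 (SE 0.17). Each SE of a fold change given here is its size divided by the square root of the F statistic of edgeR's test. The lowest adjusted p-values belonged to Col7a1 of the anchoring fibrils and to Col6a5 and Col6a2 of beaded filaments, which had lower fitted levels with a hydrogel. On the higher side, the lowest belonged to Col4a1 and Col4a2 of type IV, while 3 of the 6 basement membrane chains were below 0. None of them was called. With limma on log2(FPKM + 1), 0 chains were called. It kept only genes with a mean of at least 1 FPKM, so low chains such as Col25a1 (at most 0.164 FPKM) were not tested. edgeR called 0 of 42 chains, against 1 of all genes (0.00632%). Counting unadjusted p-values under 0.05, 3 chains were on the higher side (7.14%, against 6.29% of all genes) and 5 were on the lower side (11.9%, against 10.4%). There were 7 chains (16.7%) without the 3 libraries with other tissues, against 15.8% of all genes. DESeq2 called 2 chains, Col7a1 and Col6a5 (4.76%, against 1.12% of all genes). Of the 42 chains, 17 had a fold change above 0 (40.5%, against 46.6% of all genes). The median log2 fold change of the chains was -0.08, against -0.02 for all genes tested. It was 0.02 for fibrillar, -0.18 for basement membrane, -0.40 for FACIT and -0.18 for other chains.

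Col7a1, the chain of the anchoring fibrils, was at 78.0, 86.0 and 92.5 CPM in the control wounds. In the 18 hydrogel wounds its lowest level was 26.2, its median 41.8 and its highest 76.1 CPM. Each hydrogel library lay below each control library. Col7a1 was the 1 tested chain for which this held (2.38% of chains, against 0.253% of all genes), and 0 chains lay wholly above control (0.354% of all genes). Its log2 fold change was -0.91 (SE 0.17), with an adjusted p of 0.0612 in edgeR's test and 0.00212 in DESeq2. Leaving out 1 library moved the log2 fold change between -0.97 and -0.85. The adjusted p ran from 0.0147 to 0.568, the highest without control replicate 3, and fell below 0.05 without control replicate 2 (0.0147), without 6.4/bFGF replicate 1 (0.0499) and without 7.4/bFGF replicate 3 (0.0438), where 1189, 7 and 9 of all genes were called. Col17a1, the transmembrane collagen of the hemidesmosomes of basal keratinocytes, had a log2 fold change of -0.02 (SE 0.23). The summed level of the 8 keratinocyte markers was 3118 to 4020 CPM in control and 2007 to 5394 CPM with a hydrogel, so these ranges overlapped.

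Chains of type VI collagen differed among themselves. Col6a5, a chain with expression in skin, was at 8.46, 7.56 and 14.8 CPM in control, and at 1.51 to 8.85 CPM (median 4.14) with a hydrogel. Of the 18 hydrogel libraries, 17 lay below every control library. The log2 fold change was -1.35 (SE 0.30), with an adjusted p of 0.0947 in edgeR's test and 0.0122 in DESeq2. Col6a6 was at 10.4, 4.55 and 13.6 CPM in control and 1.18 to 9.32 CPM with a hydrogel (log2 fold change -1.18, SE 0.46, adjusted p = 0.221 in edgeR's test). Col6a1 and Col6a2, the chains shared by type VI molecules, had log2 fold changes of -0.55 (SE 0.21) and -0.55 (SE 0.20), with adjusted p-values of 0.215 and 0.200 in edgeR's test. Their partner Col6a3 was at -0.10 (SE 0.20).

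The control libraries were not alike in these chains. Col6a1 was at 1168 and 1349 CPM in control replicates 1 and 3 but at 621 CPM in replicate 2, and the hydrogel libraries ranged from 490 to 1115 CPM. Col6a2 had the same order, with 1057, 565 and 1203 CPM in control replicates 1, 2 and 3. The summed level of 9 leukocyte markers was 2717 and 2467 CPM in control replicates 1 and 3, 9674 CPM in replicate 2 and 4182 to 13363 CPM with a hydrogel. The summed level of 7 adipocyte markers was 5694, 417 and 3179 CPM in control replicates 1, 2 and 3 and 350 to 4305 CPM with a hydrogel. All 7 had a fold change below 0 (median -1.48), where 46.6% of all genes were above 0. Of these 7 markers, 4 had an unadjusted p under 0.05 (10.4% of all genes were on that side), and 0 were called. The part of these cells in the result was not tested. In tissue that holds many cell types, fewer cells of a type and less RNA per cell cannot be told apart. Without control replicate 2, edgeR called 5 of 43 chains (11.6%), but 1189 of all genes (7.4%) were then called as well. Col7a1 (log2 fold change -0.91), Col6a5 (-1.53), Col6a1 (-0.82) and Col6a2 (-0.81) were then lower with a hydrogel, and Col24a1 (1.05) was higher. Col24a1, a minor fibrillar chain, was at 32.4 CPM in control replicate 2 and at 17.5 and 9.92 CPM in replicates 1 and 3.

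In the basement membrane, Col4a1 was at 1304, 1111 and 939 CPM in control. With a hydrogel it ranged from 1079 to 2887 CPM (median 1663), and 14 of 18 libraries lay above every control library. The log2 fold change was 0.62 (SE 0.26) for Col4a1 and 0.58 (SE 0.25) for Col4a2, with adjusted p-values of 0.251 and 0.257 in edgeR's test. The other type IV chains, Col4a3 to Col4a6, are rarer in the dermis. Their log2 fold changes ran from -0.80 for Col4a6 to 0.11 for Col4a3, with standard errors of 0.29 to 0.89. The share of counts on basement membrane chains was 0.182% ± 0.0323 in control (SD, n = 3), and the means of the hydrogel groups were 0.242% to 0.332%. The summed level of 8 endothelial markers was 571 to 822 CPM in control and 530 to 1397 CPM with a hydrogel. Of these markers, 7 had a fold change above 0 (46.6% of all genes did), but 0 were called. Their part in the Col4a1 values was not tested. The transmembrane chain Col23a1 was the third chain on the higher side (log2 fold change 0.65, SE 0.29, adjusted p = 0.281 in edgeR's test).

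**Figure D3:**
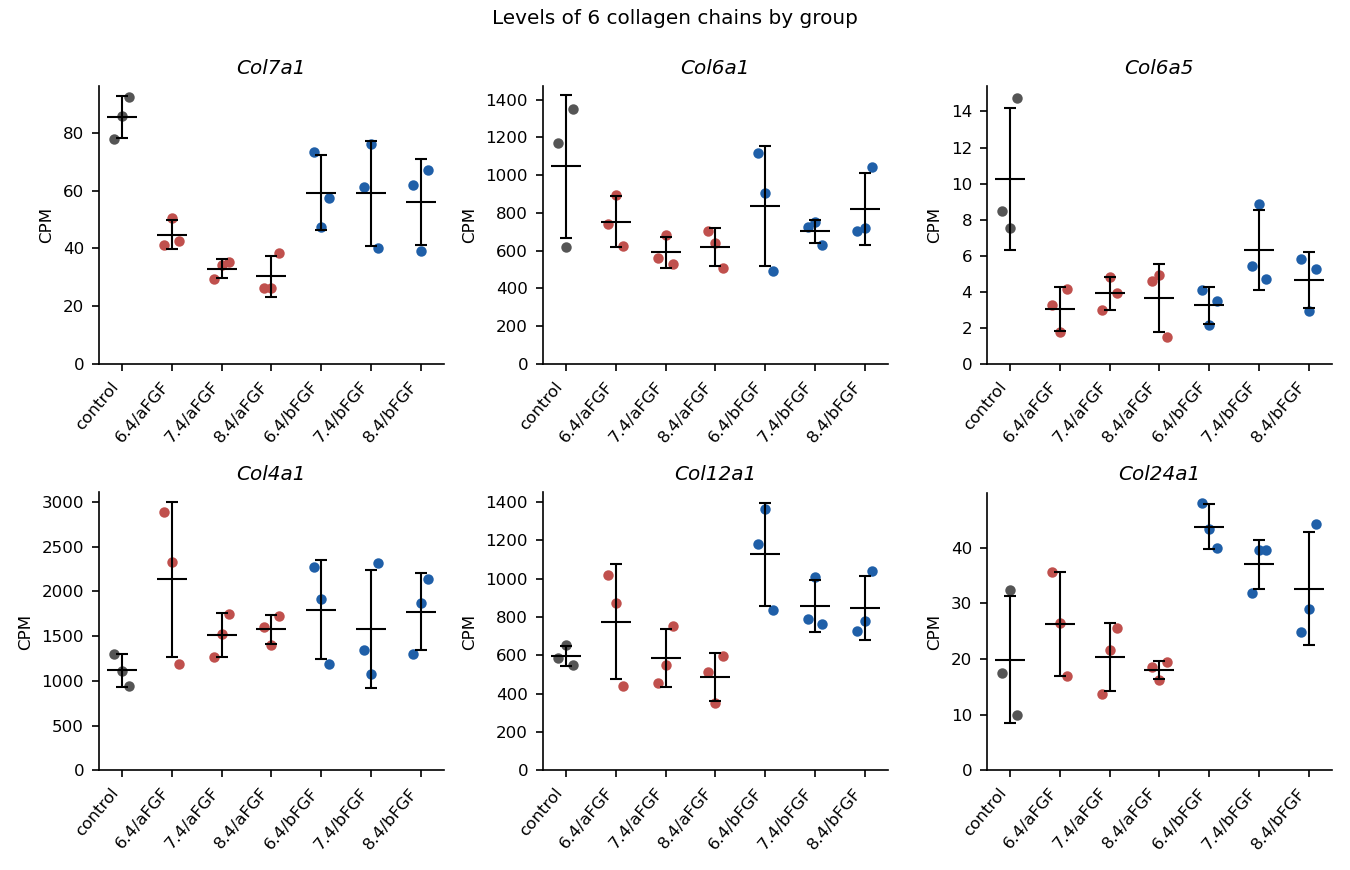
CPM of 6 chains by group. Points are single mice (n = 3 per group), and black bars are the mean ± SD. Col7a1 is highest in control (85.5 ± 7.26 CPM) and 6 of 9 aFGF libraries lie below every bFGF library, while the means of Col12a1 and Col24a1 are highest in 6.4/bFGF.

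The growth factors were compared at each pH, to ask whether aFGF and bFGF wounds differ in collagen expression. At pH 8.4, 35 of 42 chains had a log2 fold change below 0 (aFGF against bFGF), where 48.3% of all genes had one above 0, and the median was -0.41, against -0.02 for all genes tested. edgeR called 0 chains, against 10 of all genes (0.0632%). Below an unadjusted p of 0.05 there were 10 chains (23.8%), all on the side of lower levels with aFGF, which held 9.2% of all genes. Without the 3 libraries with other tissues there were 3 chains (7.14%) against 12% of all genes in either direction. In 9 chains (21.4%) each aFGF library lay below each bFGF library, which held for 12.5% of all genes. Col25a1, a transmembrane collagen, had the smallest adjusted p (0.0525 in edgeR's test, 0.000625 in DESeq2). It was at 3, 5 and 6 counts in the 3 libraries of 8.4/aFGF and at 31, 26 and 47 counts in 8.4/bFGF. The first group thus rests on few counts, with its lowest no higher than the 3 counts that a count of 0 allows. The fitted log2 fold change was -2.77 in edgeR and -2.81 in DESeq2. edgeR called Col25a1 in this comparison when 1 of 6 single libraries was left out (6.4/aFGF replicate 2 or 3, 7.4/aFGF replicate 1 or 3, 8.4/aFGF replicate 3, or control replicate 2), and Col7a1 without 8.4/aFGF replicate 3. Without that library, 2 of 43 chains (4.65%) and 1.82% of all genes were called, and without control replicate 2, 1.99% of all genes were. Col7a1 was at 26.2, 26.2 and 38.5 CPM in 8.4/aFGF and at 61.9, 39.3 and 67.1 CPM in 8.4/bFGF, without overlap (log2 fold change -0.89, SE 0.24, adjusted p = 0.0805 in edgeR's test). DESeq2 called 3 chains, Col25a1, Col7a1 and Col6a4 (7.14%, against 3.51% of all genes), and limma called 0. Col25a1 lay below limma's filter and was not tested by it. Col6a4 was at 15.2 CPM in 8.4/bFGF replicate 2, the library with genes of the ovary and oviduct, and at most at 2.77 CPM elsewhere.

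At pH 7.4, edgeR called 0 chains, against 12 of all genes (0.0759%), and limma called 0. Unadjusted p-values under 0.05 belonged to 3 chains on the higher side (7.14%, against 7.99% of all genes) and 4 on the lower side with aFGF (9.52%, against 6.85%). They belonged to 4 chains without the 3 libraries in either direction (9.52%, against 18.2%). The 3 on the higher side were Col11a2, Col9a1 and Col9a3, the chains of cartilage that were high in 7.4/aFGF replicate 3. The 4 on the lower side were Col7a1, Col25a1, Col24a1 and Col16a1. Col7a1 was at 29.3, 34.3 and 35.3 CPM in 7.4/aFGF and at 61.1, 76.1 and 40.0 CPM in 7.4/bFGF (log2 fold change -0.84, SE 0.24, adjusted p = 0.166 in edgeR's test). DESeq2 called Col7a1 and Col11a2 (4.76%, against 1.45% of all genes). The log2 fold change of Col11a2 in edgeR's fit went from 2.51 to 0.36 without the 3 libraries. At pH 6.4, edgeR, DESeq2 and limma called 0 chains, where edgeR called 0 and DESeq2 0.112% of all genes. The 1 chain with an unadjusted p under 0.05 was Col16a1 (log2 fold change -0.50, SE 0.22), on the lower side (2.38%, against 3.11% of all genes), and without the 3 libraries there were 2 chains (4.76%, against 7.25% in either direction). None of the 3 libraries is in either group at pH 6.4, so only the shared filter, scaling and estimate of spread change. All 10 fibrillar chains tested were on the side of lower levels with aFGF at this pH (median -0.41), and all 6 basement membrane chains were on the other side (median 0.58), where 53.3% of all genes were above 0. These medians rest on 3 mice a group, and the fibrillar share of counts was highest of all 21 libraries in 6.4/bFGF replicate 1 (7.67%).

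Since single chains pointed the same way at each pH, the 9 aFGF libraries were also compared with the 9 bFGF libraries, in the same fit. This comparison was added after the values had been seen, and it shares its libraries with the comparisons at each pH. Here edgeR called 4 of 42 chains (9.52%), all lower with aFGF, against 506 of 15811 genes in either direction (3.2%). Unadjusted p-values under 0.05 belonged to 11 chains (26.2%), all on the lower side with aFGF, which held 13.4% of all genes. They belonged to 9 chains (21.4%) without the 3 libraries with other tissues, against 25% of all genes in either direction. DESeq2 called the same 4 chains, against 4.78% of all genes. The median log2 fold change was -0.18 over all chains and -0.33 over the fibrillar chains, of which 9 of 10 were below 0, against -0.00161 for all genes tested, of which 49.7% were above 0. The medians of basement membrane (-0.08) and FACIT chains (-0.03) were closer to 0.

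Col7a1 was lower with aFGF. Its lowest, median and highest levels were 26.2, 35.3 and 50.5 CPM with aFGF and 39.3, 61.1 and 76.1 CPM with bFGF. All 9 aFGF libraries lay below the bFGF median, and 6 of them lay below every bFGF library. The log2 fold change was -0.71 (SE 0.14, adjusted p = 0.00737 in edgeR's test). Over the libraries left out one at a time, the adjusted p was 0.00356 to 0.0200. At single pH values, the log2 fold change then ran from -1.06 to -0.62 at pH 7.4 and from -1.10 to -0.74 at pH 8.4. At pH 6.4, Col7a1 had no unadjusted p under 0.05 in edgeR's test. Over the 3 pH values, 7 of the 8 keratinocyte markers had a fold change above 0 (49.7% of all genes did). Of these, 2 had an unadjusted p under 0.05 (14.7% of all genes were on that side), and 0 were called. Above 0 were 6 of 8 at pH 6.4, 8 of 8 at pH 7.4 and 2 of 8 at pH 8.4. Of all genes, 53.3% were above 0 at pH 6.4, 7524 of 15811 at pH 7.4 and 48.3% at pH 8.4. The part of keratinocytes in the Col7a1 values was not tested. Col17a1, which keratinocytes make, had a log2 fold change of 0.29 (SE 0.18, adjusted p = 0.308 in edgeR's test).

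Col24a1 ran from 13.7 to 35.7 CPM with aFGF (median 19.5) and from 24.8 to 47.9 CPM with bFGF (median 39.6). All 9 aFGF libraries were below the bFGF median. Its log2 fold change was -0.81 (SE 0.20, adjusted p = 0.0205 in edgeR's test), and it stayed called without each library in turn. It was -0.73 at pH 6.4, -0.86 at pH 7.4 and -0.85 at pH 8.4, so its 3 values lay within 1 SE of each other. Col25a1 had 3 to 23 counts with aFGF and 21 to 50 counts with bFGF, and in CPM 7 of the 9 aFGF libraries lay below every bFGF library. Its log2 fold change was -1.54 (SE 0.28, adjusted p = 0.00619 in edgeR's test). This difference was not even over pH. With 1 library left out at a time, it ran from -2.96 to -2.46 at pH 8.4 and from -1.66 to -1.01 at pH 7.4. At pH 6.4, Col25a1 had no unadjusted p under 0.05 in edgeR's test. In limma without its filter, on log2(FPKM + 1), levels of Col25a1 of at most 0.164 FPKM are small beside the pseudocount. The difference was then -0.09, and Col25a1 was not called.

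Col12a1, the FACIT chain of tissues under tension, ran from 353 to 1017 CPM with aFGF (median 551) and from 727 to 1364 CPM with bFGF (median 836). Of the 9 aFGF libraries, 6 lay below every bFGF library, while 6.4/aFGF replicates 1 and 2 (1017 and 872 CPM) and 7.4/aFGF replicate 3 (751 CPM) lay inside the bFGF range. Its log2 fold change was -0.63 (SE 0.16, adjusted p = 0.0252 in edgeR's test). This call was lost without any 1 of 7 libraries (6.4/aFGF replicate 3, 7.4/aFGF replicate 1, 8.4/aFGF replicate 2, 6.4/bFGF replicates 1 and 2, 7.4/bFGF replicate 2, 8.4/bFGF replicate 3), with log2 fold changes of -0.62 to -0.53 and adjusted p-values of 0.0379 to 0.0551. Col16a1 (log2 fold change -0.51, SE 0.13) and Col5a2 (-0.46, SE 0.14) had adjusted p-values of 0.0204 and 0.0486 in edgeR's test but stayed within the fold threshold. Col1a1 (-0.34, SE 0.16, adjusted p = 0.161), Col1a2 (-0.32, SE 0.16, adjusted p = 0.210) and Col3a1 (-0.18, SE 0.13, adjusted p = 0.398) did not pass. Among the fibroblast markers, Pdgfrb, a receptor for platelet-derived growth factor also found on pericytes, was called (1 of 10, against 3.2% of all genes). It was at 65.8 to 177 CPM with aFGF and 173 to 252 CPM with bFGF (log2 fold change -0.79, SE 0.20, adjusted p = 0.0234 in edgeR's test). The other 9 fibroblast markers were not called. Pdgfra (log2 fold change -0.48) and Dcn (-0.29) had adjusted p-values of 0.0126 and 0.0430 in edgeR's test, within the fold threshold. Of the 10 fibroblast markers, 4 had an unadjusted p under 0.05, all on the lower side with aFGF, which held 13.4% of all genes. Their median log2 fold change was -0.20, and 4 of 10 were above 0. The summed level of all 10 was 4053 to 5422 CPM with aFGF and 4272 to 6060 CPM with bFGF. Of 8 markers of pericytes and smooth muscle, 0 were called, 7 were below 0 and 4 of these had an unadjusted p under 0.05 (median log2 fold change -0.33). At pH 8.4 alone, 8 of 8 were below 0 (48.3% of all genes were above 0) and 4 had an unadjusted p under 0.05 (median -0.62). At this p, 9.2% of all genes were on the lower side. Their summed level was 801 to 1877 CPM with aFGF and 668 to 1977 CPM with bFGF. The part of these cells in the collagen values was not tested.

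**Figure D4:**
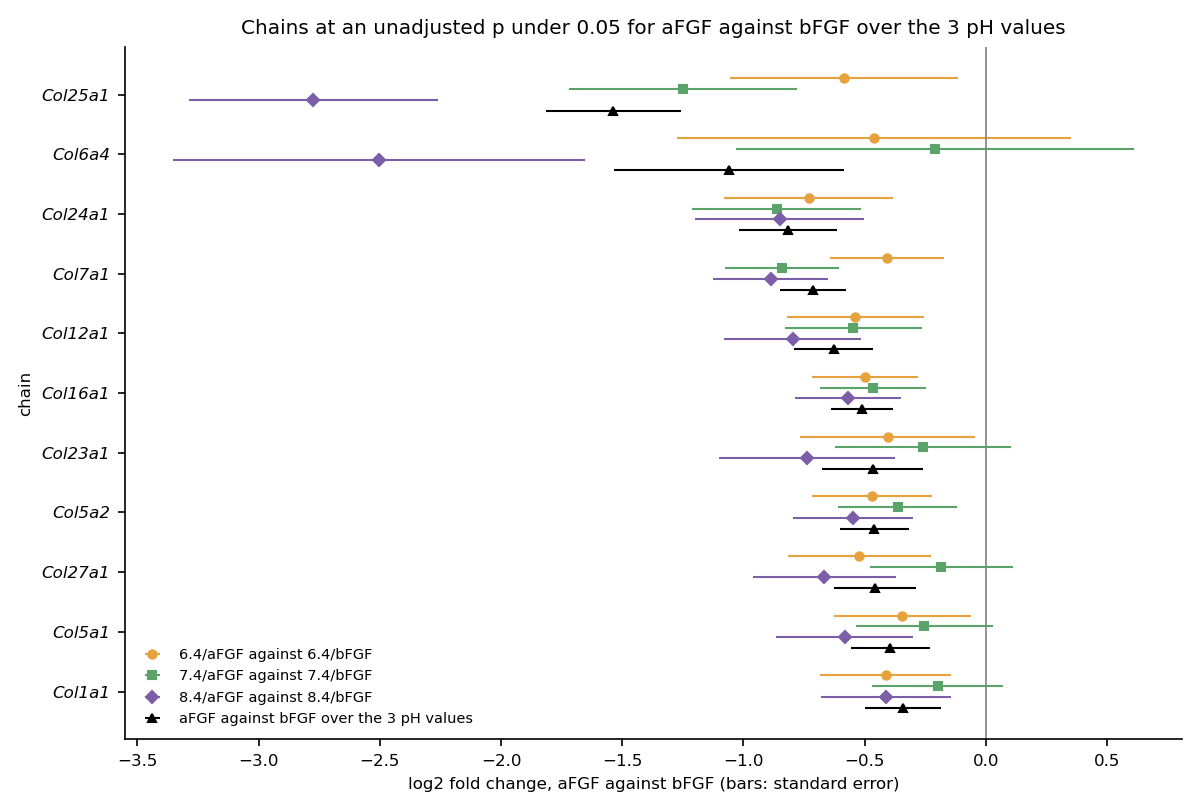
Log2 fold changes of aFGF against bFGF for the 11 chains with an unadjusted p under 0.05 over the 3 pH values. Colored points are the comparisons at each pH, black triangles the comparison over the 3 pH values, and bars are the standard error. All 11 black triangles lie below 0, from -1.54 for Col25a1 to -0.34 for Col1a1, and Col6a4 at pH 8.4 rests on 1 library.

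The pH of the hydrogel was compared within each growth factor, since the study asks how local pH changes the action of each factor. edgeR called 0 chains in each of the 4 comparisons and in the interaction, and 0 of all genes. limma also called 0 chains in all 5. With bFGF, pH 6.4 had higher fitted levels than pH 7.4 for all 10 fibrillar chains tested, with a median log2 fold change of 0.58, against -0.02 for all genes, of which 46.7% were above 0. Unadjusted p-values under 0.05 belonged to 2 chains on the higher side (4.76%, against 3.55% of all genes) and 2 on the lower side (4.76%, against 4.28%), and without the 3 libraries to 3 chains (7.14%, against 7.32%). None of the 3 libraries is in either group, so this changes only the shared filter, scaling and estimate of spread. The groups did not overlap in 4 chains that were higher (9.52%, against 7.08% of all genes) and 3 that were lower (7.14%, against 8.02%). Col5a3, a minor chain of type V collagen, was at 977, 1267 and 749 CPM in 6.4/bFGF and at 437, 516 and 673 CPM in 7.4/bFGF, without overlap. The difference on the log2 scale was 0.88 (SE 0.34, adjusted p = 0.624 in edgeR's test). Col1a1 had 22138, 20046 and 10828 CPM in 6.4/bFGF and 10394, 11566 and 12474 CPM in 7.4/bFGF. The groups overlapped through 6.4/bFGF replicate 3 (log2 fold change 0.62, SE 0.27, adjusted p = 0.624 in edgeR's test). The level of muscle markers also differed between these libraries. Their summed level was 13789 and 14519 CPM in 7.4/bFGF replicates 1 and 2, 278 CPM in replicate 3 and 1852 to 2772 CPM in 6.4/bFGF. Their part in the result was not tested. On the lower side, Col4a4 had a log2 fold change of -1.37 and Col6a5 of -0.96. DESeq2 gave an adjusted p for 16 of the 42 chains in this comparison and called 0, against 0.766% of the genes with one.

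With aFGF, 2 chains had an unadjusted p under 0.05 for pH 6.4 against pH 7.4, both on the lower side (4.76%, against 4.5% of all genes). These were Col11a2 (log2 fold change -2.81) and Col11a1 (-1.45), both high in 7.4/aFGF replicate 3. Without the 3 libraries with other tissues, there was 1 chain below this p (2.38%, against 10.1% of all genes), the log2 fold change of Col11a2 was -0.66, and that of Col11a1 turned to 0.34. The median of the fibrillar chains was 0.39. The pH difference with aFGF was compared with that with bFGF by an interaction term. Here the chains with an unadjusted p under 0.05 were again Col11a2 and Col11a1, on the lower side (4.76%, against 1.78% of all genes), and without the 3 libraries there were 0 (6% of all genes). DESeq2 called 1 chain for pH 6.4 against 7.4 with aFGF, which was Col11a2 (2.38%, against 0.102% of all genes), and 0 for the interaction (0.016% of all genes). Without the 3 libraries, the interaction of Col11a2 went from -2.91 to -0.76 on the log2 scale.

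Between pH 8.4 and pH 7.4, the chains below an unadjusted p of 0.05 were mostly those of single libraries. With aFGF there were 6 (14.3%), all on the lower side at pH 8.4, which held 3.16% of all genes. Of these, 5 were Col11a1, Col11a2, Col9a1, Col9a2 and Col9a3, and the other was Col25a1. Without the 3 libraries there were 0 (6.41% of all genes). DESeq2 called Col11a2 (2.38%, against 0.192% of all genes), whose log2 fold change in edgeR's fit went from -2.60 to -0.50 without the 3 libraries. With bFGF there was 1, Col6a4, on the higher side (2.38%, against 2.52% of all genes). Its log2 fold change of 2.14 turned to -0.12 without the 3 libraries, where there were 0 chains (2.56% of all genes). DESeq2 called 0 with bFGF (0.016% of all genes). The next smallest p-values with bFGF belonged to Col17a1 (log2 fold change 0.40, SE 0.30) and Col27a1 (0.38, SE 0.29).

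Cartilage collagens marked a single library. The high levels of Col2a1, Col10a1, Col9a1 and Col11a2 in it were known before this description began. They are its starting observation and not a test. In 7.4/aFGF replicate 3, Col2a1, the chain of type II collagen of hyaline cartilage, had 7277 counts (195 CPM). In the other 20 libraries it had 0 to 35 counts, and the highest of them was control replicate 3 (0.965 CPM). Col10a1, the collagen of hypertrophic cartilage, had 2196 counts (59.0 CPM), against 0 to 5 counts elsewhere. For these 2 chains the library stood alone. Col9a1, a FACIT chain bound to type II fibrils, was at 13.9 CPM there. It was also found elsewhere, at 1.44 CPM in 6.4/aFGF replicate 1, 1.16 CPM in control replicate 1 and 0.717 CPM in control replicate 3, and it was at 0 in 6 libraries. Col11a2 was at 46.2 CPM there but was present in all libraries, at 1.72 to 4.88 CPM. These 2 chains were thus not absent elsewhere. Col9a2 (12.3 against at most 5.62 CPM), Col9a3 (12.0 against 3.35 CPM), Col11a1 (35.3 against 18.3 CPM) and Col22a1 (4.62 against 1.07 CPM) were also highest in this library.

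Other genes of cartilage and bone were high in the same library. Of 19 markers, 13 had their highest level there. Acan, the core protein of cartilage proteoglycan, was at 52.0 CPM against at most 0.904 CPM elsewhere. Ibsp and Bglap, which encode proteins of mineralized bone matrix, were at 33.4 and 4.86 CPM against at most 0.183 and 0.0285 CPM. Comp was at 29.7 CPM against at most 4.53 CPM. The 6 markers that were not highest there were Sox9, Cnmd, Ihh, Prg4, Alpl and Phex. The summed level of all 19 was 808 CPM there and 121 to 1384 CPM in the other libraries, since Prg4, the lubricin of joint and tendon surfaces, made up most of it (596 CPM there and 100.2 to 1364 CPM elsewhere). In this library Col1a1 was at 10782 CPM, and Col3a1 was at 15445 CPM, its second lowest level in all 21 libraries. Col5a3 was at 860 CPM, above the other 2 libraries of 7.4/aFGF (516 and 497 CPM).

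**Figure D5:**
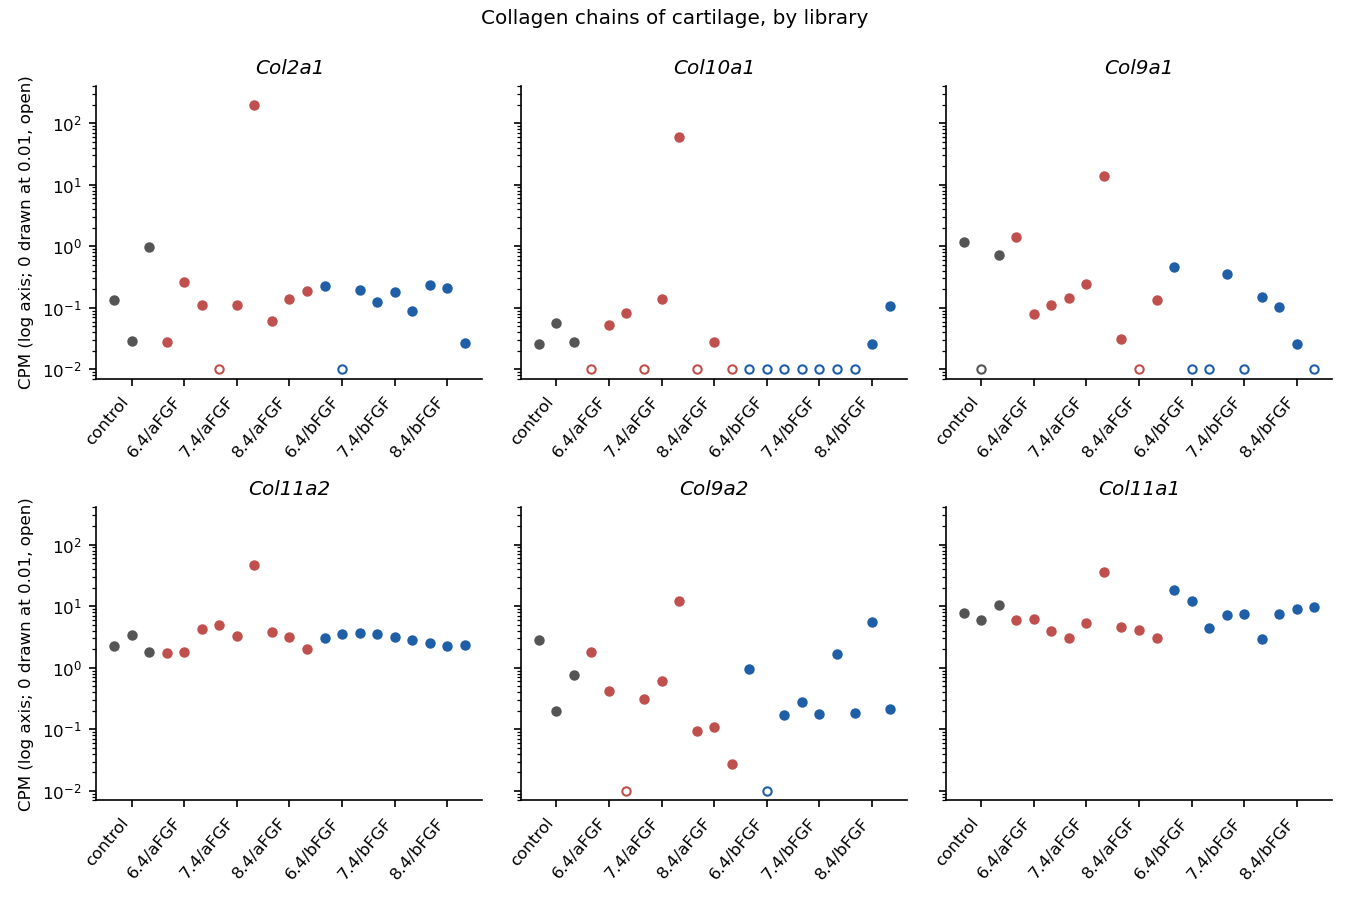
CPM of 6 collagen chains of cartilage in each library, on a log axis, with control in grey, aFGF in red and bFGF in blue. Open circles are counts of 0, drawn at 0.01. For Col2a1 and Col10a1 1 red point, 7.4/aFGF replicate 3 (195 and 59.0 CPM), lies far above the rest, whereas Col11a2 and Col11a1 are present in every library.

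The genes that modify, bind and accompany collagens were described from 3 lists. Of 30 genes for the folding, export, processing and cross-linking of collagen, 0 were called by edgeR against control, and 27 had higher fitted levels with a hydrogel, as did 46.6% of all genes (median log2 fold change 0.16, against -0.02 for all genes). Of them, 7 had an unadjusted p under 0.05, all on the higher side, which held 6.29% of all genes. Mia3, which encodes the receptor that loads procollagen for export from the endoplasmic reticulum, was at 125 to 148 CPM with a hydrogel and 99.9 to 120 CPM in control, without overlap (log2 fold change 0.33, SE 0.07, adjusted p = 0.0669 in edgeR's test). Lox, the cross-linking lysyl oxidase, was at 1027 ± 228 CPM (SD, n = 18) with a hydrogel and 561 ± 280 CPM (SD, n = 3) in control (log2 fold change 0.86, SE 0.24, adjusted p = 0.138 in edgeR's test). For aFGF against bFGF over the 3 pH values, 0 of these 30 genes were called by edgeR, while 12 on the lower and 1 on the higher side with aFGF had an unadjusted p under 0.05 (13.4% of all genes were on the lower and 14.7% on the higher side), with a median of -0.19. Loxl3, another lysyl oxidase, and P3h3, a collagen prolyl hydroxylase, had adjusted p-values of 0.0138 and 0.0146 in edgeR's test, within the fold threshold (log2 fold changes -0.41 and -0.42). At pH 6.4 against 7.4, 27 of the 30 genes had higher fitted levels with aFGF (52.9% of all genes did) and 25 with bFGF (46.7%), and 7 and 8 of them had an unadjusted p under 0.05 on that side (2.76% of all genes with aFGF and 3.55% with bFGF). edgeR called 0 of them in both.

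Of 10 genes for collagen receptors and uptake, 0 were called by edgeR against control, and 1 on the higher and 2 on the lower side had an unadjusted p under 0.05 (6.29% and 10.4% of all genes). Ddr1, a receptor tyrosine kinase for collagen, had a log2 fold change of -0.32 (SE 0.12, adjusted p = 0.223 in edgeR's test). Itga11, the alpha subunit of a fibroblast integrin for type I collagen, had one of -0.83 (SE 0.38, adjusted p = 0.286). Of 15 genes for proteoglycans and matrix proteins bound to fibrils, 0 were called and 3 had an unadjusted p under 0.05, all on the lower side with a hydrogel, which held 10.4% of all genes. Lum, a proteoglycan that limits fibril width, was at 264 to 564 CPM with a hydrogel and 477 to 752 CPM in control (log2 fold change -0.71, SE 0.19, adjusted p = 0.128 in edgeR's test). Postn, a matrix protein made by activated fibroblasts, had a log2 fold change of -0.90 (SE 0.28, adjusted p = 0.167). For aFGF against bFGF over the 3 pH values, 0 genes of either list were called by edgeR, and 2 of 10 and 3 of 15 had an unadjusted p under 0.05, all on the lower side with aFGF, which held 13.4% of all genes. Mrc2, an endocytic receptor for collagen, had an adjusted p of 0.0304 in edgeR's test, and Bgn and Dcn, small proteoglycans of fibrils, had 0.0362 and 0.0430, all within the fold threshold.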

How the data were processed

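The values deposited by the authors for the 21 libraries are unnormalized read counts of each gene and FPKM values. In 18238 genes the FPKM were checked to follow from the counts, the library totals and 1 length for each gene. Libraries were made with a stranded mRNA kit. The submitters' processing notes name the build GRCm39, and the aligner, counting tool and annotation are not given in the sources used here. A RefSeq table of another build held all 44 symbols and served for names only, so no coordinates are printed.

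The counts entered edgeR 4.0.16 under R 4.3.3 (TMM, default filter by group, quasi-likelihood test, 1 mean per group, 21 libraries, Benjamini-Hochberg adjustment over 15811 genes), and tested on simulated data first. A call needed an adjusted p under 0.05 together with a log2 fold change of more than 0.58 in size, except in the test over 7 groups, which has no fold threshold. The submitters' labels gave 10 comparisons. That of aFGF against bFGF over the 3 pH values was added after the values had been seen. Fold changes use edgeR's default prior count. A prior count of 2 was used only for the log2 CPM behind the check of replicate numbers. Alternatives were DESeq2 1.42.0, limma 3.58.1 on log2(FPKM + 1) or log2(FPKM + 0.1), RLE normalization, other filters, only the libraries compared, the replicate number as a block, and leaving out libraries. The limma fits kept genes with a mean of at least 1 FPKM, except for 1 fit on log2(FPKM + 1) without a filter. Members and lists were chosen with earlier results of these data known. The genes named were chains called, the 4 most abundant of each class, the 3 of smallest p per comparison, 4 cartilage chains and the 2 of smallest p in each pathway list. Col6a6, Col4a3, Col4a6, Col6a5 at pH 6.4 and other chains given to complete a type or a count were named after their values were seen. So were Pdgfrb, Pdgfra, Dcn and the cartilage and bone markers.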

Additional observations from a re-analysis of the deposited data

How the results depend on the processing

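For the 10 planned comparisons, edgeR called 0 chains, and RLE normalization, a minimum of 10 counts in every library, limma, only the libraries compared, no fold threshold and the 3 libraries left out together also gave 0. Without a filter, 1 chain (Col2a1) was called among the 7 groups. DESeq2 called 11 chains among the 7 groups, 2 for hydrogels against control, 1 each for pH 6.4 and pH 8.4 against 7.4 with aFGF, 2 for aFGF against bFGF at pH 7.4 and 3 at pH 8.4. Leaving out 1 library gave 0 to 5 chains among the 7 groups, 0 to 5 for hydrogels against control, 0 to 2 for aFGF against bFGF at pH 8.4 and 3 to 5 for aFGF against bFGF over the 3 pH values, where Col11a1 was the fifth chain, called without 7.4/aFGF replicate 3. Both counts of 5 against 0 came without control replicate 2, where 5.38% and 7.4% of all genes were called. Over the 3 pH values, 269 to 714 of all genes were called without 1 library.

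Without the 3 libraries with other tissues, Col11a1 (0.34) and Col9a3 (0.46) at pH 6.4 against 7.4 with aFGF and Col6a4 (-0.12) at pH 8.4 against 7.4 with bFGF changed sign. Over the libraries left out one at a time, they ran from -1.93 to 0.35 (Col11a1), -2.57 to 0.46 (Col9a3) and -0.12 to 2.62 (Col6a4), and changed sign without 7.4/aFGF replicate 3 (Col11a1, Col9a3) or 8.4/bFGF replicate 2 (Col6a4). Chains at low counts such as Col25a1 are limited by depth, and a minimum of 10 counts in every library removes it.

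No sign was seen that replicate numbers pair the mice. Deviations from the group means correlated at -0.64 to 0.42 (median 0.01) between libraries of the same number. Between libraries of different numbers and groups they correlated at -0.565 to 0.578 (median -0.00819). With the replicate number as a block, 0 chains were called in the 10 planned comparisons and 4 for aFGF against bFGF over the 3 pH values.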
